A study of Mus musculus with 8 samples.

Results

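The aminoacyl-tRNA synthetases are the enzymes that load each tRNA with its amino acid. The 36 genes described here were chosen by gene symbol: 20 enzymes of the cytosol (names without a final 2, with Farsa, Farsb and Eprs among them) and 16 of the mitochondrion (names ending in 2). All 36 were present in the footprint table of 12818 genes and in the total RNA table of 13436 genes, out of 13838 genes in either, and all 36 passed the filter on low reads. The cells were mouse embryonic stem cells of line J1 (strain 129S4/SvJae), grown feeder-free on gelatin with serum and leukemia inhibitory factor. The eIF4A2 knockdown cells carried eIF4A2 shRNA (the protocol names sheIF4A2-2 and sheIF4A2-3), and the control cells carried control shRNA (the protocol names shNT and shGFP). Both were infected on day 0, selected in 1 μg/mL puromycin for 3 days and lysed on day 4.5 after 1 min in 0.1 mg/mL cycloheximide, a drug that stalls ribosomes on mRNA. Ribosome-protected fragments (footprints) and total RNA were sequenced, each in 2 knockdown and 2 control libraries, 8 libraries in all. The sources used here do not tell which shRNA went into which library.

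Every amino acid that enters a protein first passes through one of these enzymes, which fall into a pair of unrelated structural families known as class I and class II. Mitochondria translate their own mRNAs with a separate set, encoded in the nucleus, although Kars and Gars each encode the cytosolic and the mitochondrial form from the same gene. In mammals several cytosolic enzymes sit in a multisynthetase complex held together by the scaffold proteins Aimp1, Aimp2 and Eef1e1. Many cytosolic synthetase genes are known targets of ATF4, the transcription factor of the amino acid response, which acts with C/EBP partners through a composite DNA element.

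The core of that element was looked for in the promoters, and its matches are shown because they stood in some cytosolic and in 0 mitochondrial windows. RefSeq promoter windows (build GRCm38.p6, 250 bases before to 50 bases after the annotated start) were at hand for 27 of the 36 genes, 13 of the 20 cytosolic and 14 of the 16 mitochondrial ones. The letters TGATGNAA, or TTNCATCA on the other strand, stood in 5 of the 13 cytosolic windows (Aars, Gars, Iars, Tars and Yars, 38.5%) and in 0 of the 14 mitochondrial ones. Over all 27025 genes with a window the share was 4.51%. The NRF1 motif (GCGC, any base, then TGCGC, on either strand) stood in 3 cytosolic windows (Farsb, Kars and Tars), 2 mitochondrial windows (Iars2 and Mars2) and 5.19% of all genes, and it overlapped no match of the first motif. Genes without a window could not be searched. These matches describe the letters only, and binding was not measured. Whether the matches go with the fold changes was not tested. The 30 bases around 1 composite element of each of these genes, on the strand of the gene, show it in capitals:
Aars (chr8:111033840-111033869, + strand): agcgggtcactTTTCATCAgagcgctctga
Gars (chr6:55037960-55037989, + strand): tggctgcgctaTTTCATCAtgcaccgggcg
Iars (chr13:49682126-49682155, + strand): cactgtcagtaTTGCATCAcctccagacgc
Tars (chr15:11399655-11399684, - strand): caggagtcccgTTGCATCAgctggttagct
Yars (chr4:129189895-129189924, + strand): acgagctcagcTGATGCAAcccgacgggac
The first base of the element lay at 10 in Aars, -30 in Gars, 8 in Iars, -15 in Tars and 4 in Yars, counted from the annotated start with the first transcribed base as 1. For comparison, these are the 120 bases before the start of Tars, with its element in capitals, and of Sars, the member with the lowest knockdown mean relative to control, which has no match in its window:
Tars (chr15:11399659-11399778, - strand): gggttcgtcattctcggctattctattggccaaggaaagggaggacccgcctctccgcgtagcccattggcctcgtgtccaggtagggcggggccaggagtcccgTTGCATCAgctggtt
Sars (chr3:108445260-108445379, - strand): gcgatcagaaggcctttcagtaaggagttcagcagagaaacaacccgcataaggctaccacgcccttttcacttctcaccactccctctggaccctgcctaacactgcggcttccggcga

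Values are written as CPM, the authors' reads per gene divided by an effective library size. Reads over the listed genes were rebuilt from the lowest nonzero value of each library. They summed to 7947827 and 9573832 for knockdown footprints against 9458103 and 10682677 for control footprints. The last sum is less certain, since the lowest value of footprint control 2 lies too near 0.1 to be told from rounding. In total RNA the sums were 12228408 and 12840349 for the knockdown against 8564582 and 9489221 for the control. Eif4a2 itself was lower in each knockdown library than in each control library, at 311 and 153 CPM in knockdown footprints against 395 and 409 CPM in control footprints, and at 583 and 617 against 739 and 969 CPM in total RNA. The 6 stem cell markers (Pou5f1, Nanog, Sox2, Zfp42, Esrrb and Dppa5a) were listed at 175 CPM or more in every library. They summed to 3625 to 3755 CPM in the knockdown and 4901 to 5864 CPM in the control. Zfp42 had the largest gap in CPM, with 959 and 820 CPM in knockdown footprints against 2027 and 2301 CPM in control footprints. Pou5f1 overlapped between groups in footprints, and Dppa5a did so in total RNA. Of 6 fibroblast markers 4 were listed, with sums of 14.6 to 21.1 CPM in the knockdown and 11.1 to 25.5 CPM in the control. Of 5 endoderm markers 3 were listed in footprints and 2 in total RNA, with sums of 5.60 to 11.8 CPM in the knockdown and 3.66 to 10.9 CPM in the control. Their part in the results was not tested. The spread was uneven: over genes with a mean of at least 10 CPM, the SD of the log2 difference between replicates was 0.423 for knockdown and 0.372 for control footprints, but 0.135 for knockdown and 0.450 for control total RNA.

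Most cytosolic synthetases had lower values in the knockdown, in footprints and in total RNA, while the medians of the mitochondrial synthetases lay near control. In footprints 18 of 20 cytosolic genes had a negative log2 fold change, where 49.4% of all 12723 genes tested did, with a median of -0.26 against 0.0052 over all genes. In total RNA 19 of 20 were negative, where 50.3% of 13436 genes were, with a median of -0.21 against -0.0024. The 16 mitochondrial genes had 8 negative values and a median of -0.0026 in footprints, and 10 negative values and a median of -0.07 in total RNA. No single synthetase passed the threshold of 0.05 in limma with Benjamini-Hochberg adjustment over all genes, in either assay, and neither did any other gene (0% of all genes tested). At an unadjusted p below 0.05, limma had 3 cytosolic genes lower and 1 mitochondrial gene higher in footprints (6.74% and 6.12% of all genes), and 5 cytosolic genes lower in total RNA (8.08%). In a bulk culture, fewer cells of a kind and less RNA per cell cannot be told apart.

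Summed over the 20 cytosolic genes, footprints came to 7226 and 8948 CPM in the knockdown against 9822 and 9439 CPM in the control. Total RNA came to 6241 and 6112 CPM in the knockdown against 6802 and 8114 CPM in the control. The knockdown sums were below the control sums in each assay, by the most for footprints of knockdown 1 and against total RNA of control 2. Shares of the summed values of all listed genes were also taken, which is the same as scaling libraries to equal totals. By this measure the cytosolic genes held 0.808% and 0.893% of footprints in the knockdown against 0.978% and 0.892% in the control, with overlap. In total RNA the shares were 0.647% and 0.633% in the knockdown against 0.696% and 0.771% in the control, with no overlap. The 16 mitochondrial genes held 0.0673% and 0.0637% of footprints in the knockdown against 0.0612% and 0.0584% in the control, higher without overlap. In total RNA they held 0.0771% and 0.0763% in the knockdown against 0.0768% and 0.0741% in the control, with overlap. Under equal totals the median footprint log2 fold change of all genes was itself above 0, at 0.12.

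**Figure D1:**
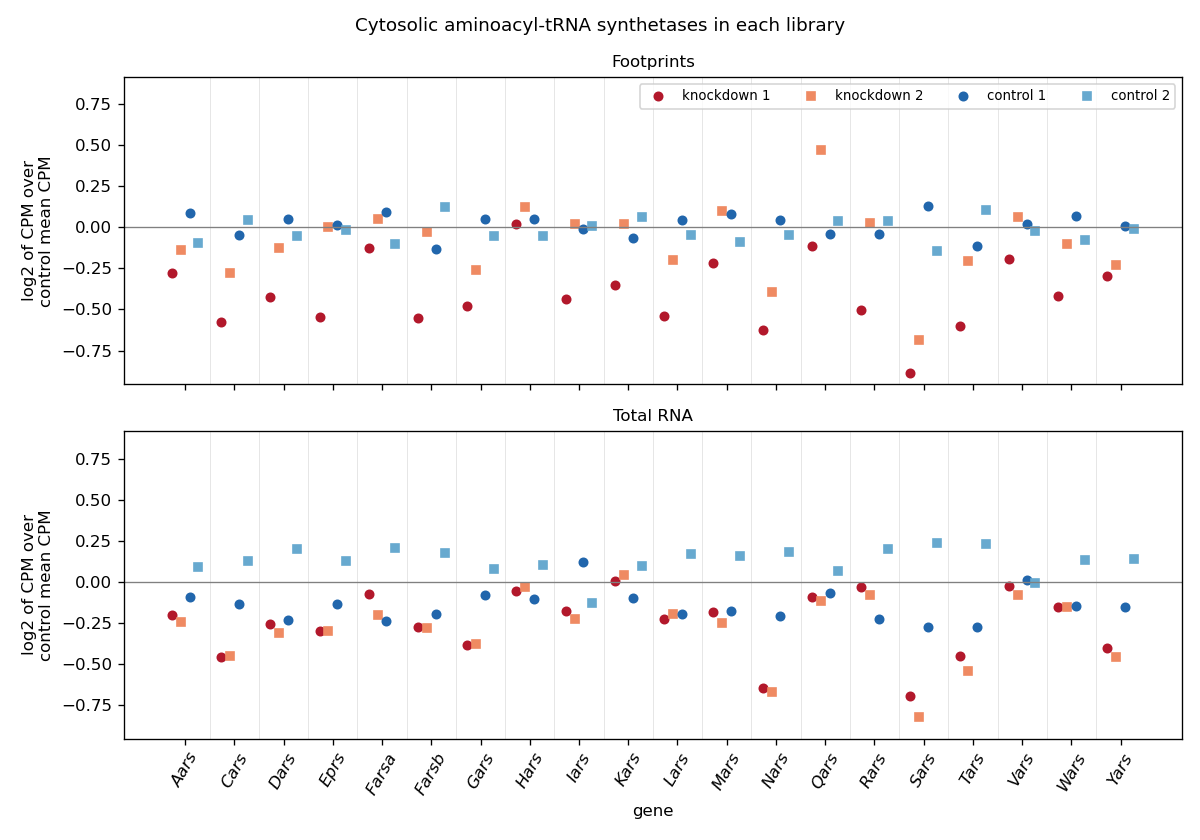
Level of each of the 20 cytosolic synthetase genes in the 4 footprint libraries (upper panel) and the 4 total RNA libraries (lower panel), as log2 of CPM over the mean CPM of the 2 control libraries; each point is 1 library. Knockdown 1 is the lowest footprint library for 19 of 20 genes, control 2 is the highest total RNA library for 18 of 20, and Sars and Nars lie lowest in the knockdown in both panels.

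A footprint library and a total RNA library stood out among the cytosolic values. Knockdown 1 was the lowest of the 4 footprint libraries for 19 of 20 cytosolic genes, and control 2 the highest of the 4 total RNA libraries for 18 of 20. Yet knockdown 1 kept more Eif4a2 footprints, 77.3% of the control mean, than knockdown 2, 38.2%. The lower cytosolic footprints thus lay mainly in the library with the smaller loss of Eif4a2 footprints. Whether the cytosolic values go with Eif4a2 was not tested. Without footprint knockdown 1, 11 of 20 cytosolic genes were negative, with a median of -0.06. In total RNA 16 of 20 were negative without control 2, with a median of -0.07. Leaving out footprint knockdown 2 instead gave a median of -0.43, and leaving out total RNA control 1 gave -0.38. Among the 16 mitochondrial genes, the lowest footprint library was knockdown 1 for 3 genes, knockdown 2 for 5, control 1 for 5 and control 2 for 3. Control 2 was the highest total RNA library for 8 of the 16, against 2 to 3 for each of the others.

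Of the cytosolic enzymes outside the multisynthetase complex, Sars and Nars had the largest differences. Sars, the seryl-tRNA synthetase, also charges the tRNA that becomes selenocysteinyl-tRNA. Its footprints were 338 and 389.6 CPM in the knockdown against 684 and 568 CPM in the control, and its total RNA 246 and 225 CPM against 329 and 469 CPM. Every knockdown library lay below every control library, at 58.1% of the control mean in footprints and 59.1% in total RNA. The log2 fold change was -0.78 ± 0.18 (SE, n = 2 libraries per group) in footprints with a limma adjusted p of 0.151, and -0.74 ± 0.20 in total RNA with a limma adjusted p of 0.189. Nars, the asparaginyl-tRNA synthetase, uses the amino acid that Asns makes. It had 425 and 500.4 CPM in knockdown footprints against 677 and 637 CPM in control footprints, and in total RNA 280.2 and 276 CPM in the knockdown against 379.9 and 498 CPM in the control. Again the groups did not overlap, and the log2 fold changes were -0.51 ± 0.17 (limma adjusted p = 0.286) in footprints and -0.64 ± 0.17 (limma adjusted p = 0.186) in total RNA. Neither gene passed the threshold here. In the authors' deposited table of total RNA both had an FDR below 0.05, 0.0211 for Sars and 0.0427 for Nars, as did 3.19% of all genes in the lower direction, and 0 of 36 synthetases did in the higher direction (2.21% of all genes). In the authors' deposited table of footprints Sars had an FDR of 0.116 and Nars one of 0.479, and 0 of 36 passed (0.889% of all genes lower, 0.788% higher).

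By total RNA fold change Cars, Gars, Tars and Yars followed, and none of their groups overlapped in either assay. In footprints Lars (-0.37) lay further from 0 than Yars. Cars, the cysteinyl-tRNA synthetase, had 155 and 191 CPM in knockdown footprints against 224 and 238 CPM in control footprints. Its total RNA was 143 and 144 CPM in the knockdown against 179 and 215 CPM in the control. The knockdown mean was 74.7% of control for footprints and 72.8% for total RNA, with log2 fold changes of -0.43 ± 0.17 (limma adjusted p = 0.342) and -0.45 ± 0.15 (limma adjusted p = 0.251). Gars, the glycyl-tRNA synthetase of both compartments, had 465 and 542 CPM in knockdown footprints against 671 and 626 CPM in control footprints. In total RNA it had 422 and 424 CPM against 523 and 582 CPM. Its log2 fold changes were thus close in size, at -0.37 ± 0.17 in footprints (limma adjusted p = 0.429) and -0.38 ± 0.14 in total RNA (limma adjusted p = 0.292). Yars, the tyrosyl-tRNA synthetase, had 263 and 275 CPM against 325 and 321 CPM in footprints, where the libraries of each group lay close together. Its log2 fold change there was -0.26 ± 0.16 (limma adjusted p = 0.520). Its total RNA was 230.5 and 221 CPM in the knockdown against 274 and 335 CPM in the control, a log2 fold change of -0.42 ± 0.15 (limma adjusted p = 0.290). Tars, the threonyl-tRNA synthetase, was at 76.3% of the control mean in footprints, with 283 and 371 CPM in the knockdown against 396 and 461 CPM in the control. In total RNA it was at 70.7%, with 257 and 241 CPM against 290.4 and 413 CPM.

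Of the other enzymes outside the complex, Aars, the alanyl-tRNA synthetase, had 1098 and 1207 CPM in knockdown footprints against 1413 and 1246 CPM in control footprints, and in total RNA 909 and 883 CPM against 978 and 1113 CPM, with no overlap in either. Wars, the tryptophanyl-tRNA synthetase, had footprints of 134 and 167 CPM against 188 and 169.8 CPM, and total RNA of 107.3 and 107.5 CPM against 107.8 and 131 CPM. These last groups were separated by under 1 CPM. Farsa and Farsb encode the 2 kinds of subunit of 1 enzyme, the phenylalanyl-tRNA synthetase, and their footprint means were 97.7% and 83.1% of control. Farsa overlapped between groups in both assays, and Farsb did so in footprints only, with 178 and 177 CPM in knockdown total RNA against 188 and 243 CPM in control total RNA. Vars, the valyl-tRNA synthetase, which binds elongation factor 1, was at 96.1% of control in footprints, with overlap, and 96.3% in total RNA, where 430 and 415 CPM in the knockdown stood against 441 and 436 CPM in the control without overlap. Hars, the histidyl-tRNA synthetase, was at 105% and 97.1%, and its groups overlapped in each assay. In all, 10 of 20 cytosolic genes in footprints and 16 of 20 in total RNA had each knockdown library below each control library, against 22.5% and 24.6% of all genes tested. In the higher direction there were 0 of 20 in each, against 22.3% and 23.3%. The same 10 genes did so in both assays.

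Enzymes of the multisynthetase complex lay nearer to control by their median. It was -0.22 for footprints and -0.20 for total RNA over the 8 of them, and -0.27 and -0.32 over the 12 outside. Lars, the leucyl-tRNA synthetase, also known as a leucine sensor of the mTORC1 pathway, had 424 and 536 CPM in knockdown footprints against 634 and 596 CPM in control footprints. Dars, for aspartate, had 178 and 218 CPM against 247 and 229 CPM. For these 2 of 8 the footprint groups did not overlap, near the 22.5% of all genes tested that were lower without overlap. Those of the other 6 overlapped. Qars, for glutamine, had its highest footprint value in knockdown 2, with 212 and 317 CPM in the knockdown against 222 and 235 CPM in the control. Eprs, which joins the glutamyl and prolyl enzymes in 1 protein, had 586 and 858 CPM against 865 and 847 CPM in footprints. Its total RNA was closer within the knockdown, at 593 and 592 CPM against 665 and 795 CPM. Iars (isoleucine), Kars (lysine), Mars (methionine) and Rars (arginine) had footprint means of 86.3% to 96.8% of control, with overlap in each. For total RNA, Dars had 186 and 179 CPM in the knockdown against 189.8 and 256 CPM in the control, and Iars 323 and 312 CPM against 396 and 334 CPM. Lars had 359.7 and 367 CPM against 368 and 474 CPM, and Mars 322 and 308 CPM against 324 and 409 CPM. Qars had 189 and 187 CPM against 193 and 212 CPM. Of these, Lars, Mars, Dars and Qars had control 1 close to the knockdown and control 2 further above it. In total RNA, Dars, Eprs, Iars, Lars, Mars and Qars (6 of 8) had each knockdown library below each control library. The share of all genes tested was 24.6%. Kars (102% of control, from 472 and 485 CPM against 440.2 and 503 CPM) and Rars (96.2%) overlapped in total RNA. Without footprint knockdown 1 the median of these 8 was 0.02, with 2 of 8 negative, and without total RNA control 2 it was -0.04, with 6 of 8 negative. The 12 outside had -0.17 (9 negative) and -0.18 (10 negative) in the same settings. Leaving out footprint knockdown 2 gave -0.43 inside and -0.44 outside the complex, and leaving out total RNA control 1 gave -0.31 and -0.45. Whether the 2 subsets differ was not tested. By structural family, the footprint median was -0.24 for class I and -0.28 for class II enzymes, and that of total RNA -0.20 and -0.27, with Eprs in neither count. Without footprint knockdown 1 the footprint medians were 0.02 for class I, on the other side of 0, and -0.13 for class II, and without footprint knockdown 2 they were -0.41 and -0.45. The total RNA medians were -0.04 and -0.10 without control 2, and class II had -0.45 without control 1.

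Among the scaffolds of the complex 0 of 3 passed limma's threshold. Aimp1, which is also released as a cytokine, had 175 and 212 CPM in knockdown footprints against 235 and 214 CPM in control footprints, and total RNA of 104 and 104 CPM against 114 and 168 CPM. Eef1e1 had 37.9 and 37.6 CPM in knockdown footprints against 43.9 and 59.7 CPM, but its total RNA groups overlapped. Aimp2 had 113 and 144 CPM against 119 and 121 CPM in footprints. Its total RNA was 66.6 and 67.03 CPM in the knockdown against 49.6 and 66.5 CPM in the control, groups separated by under 1 CPM. The total RNA median of the 3 scaffolds was -0.13, with 0.20 without control 2 and -0.47 without control 1.

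**Figure D2:**
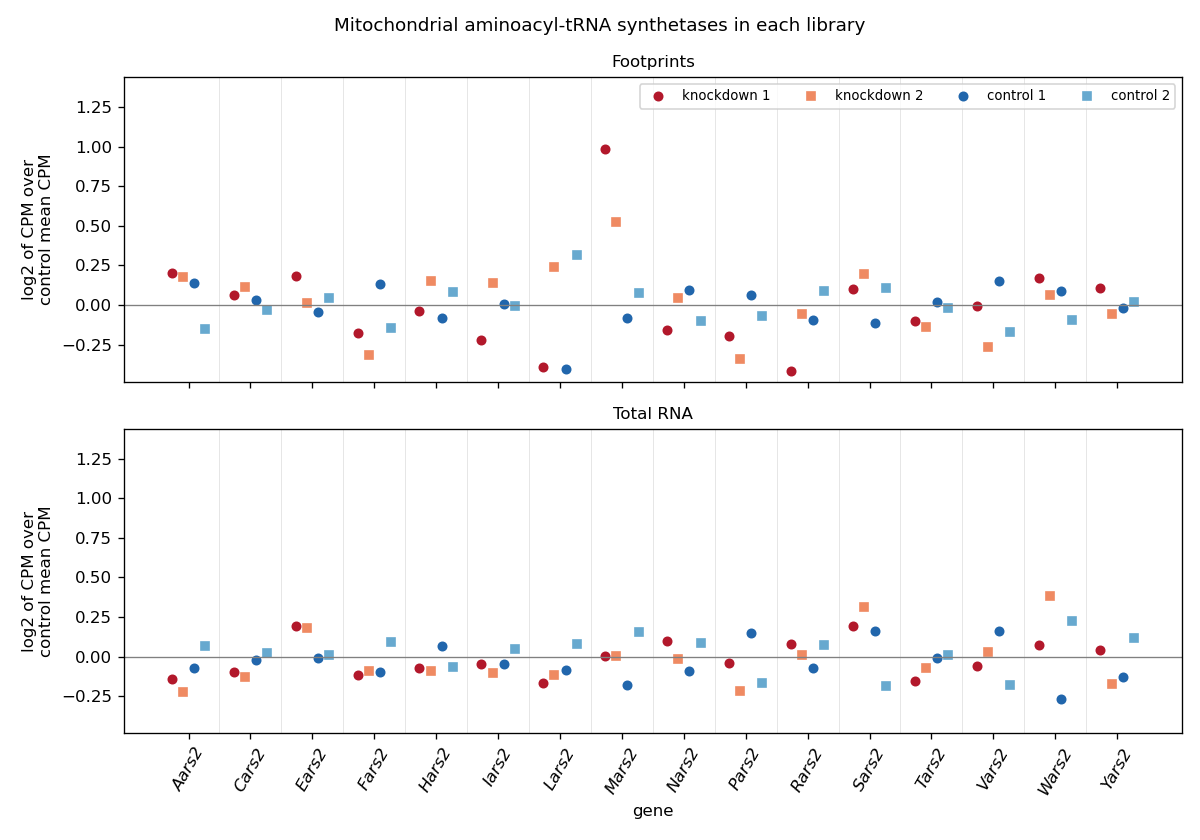
Level of each of the 16 mitochondrial synthetase genes in the 4 footprint libraries (upper panel) and the 4 total RNA libraries (lower panel), as log2 of CPM over the mean CPM of the 2 control libraries; each point is 1 library. Most points lie around 0 on either side, and the footprints of Mars2 in the knockdown stand above all others.

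Mitochondrial synthetases showed no common direction, and Mars2 stood apart among them in footprints. Mars2, the methionyl-tRNA synthetase whose product is formylated to start mitochondrial proteins, had 25.3 and 18.4 CPM in knockdown footprints against 12.1 and 13.5 CPM in control footprints, 171% of control. Its total RNA was 31.2 and 31.2 CPM in the knockdown against 27.5 and 34.7 CPM in the control, 100.2% of control. The footprint groups did not overlap and the total RNA groups did. The log2 fold change was 0.71 ± 0.24 (limma adjusted p = 0.273) in footprints and 0.01 ± 0.17 (limma adjusted p = 0.984) in total RNA. Mars2 had 114 to 225 reads in a footprint library, few beside the 1190 to 13301 of the cytosolic genes.

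Of the other mitochondrial enzymes, 5 did not overlap between groups in footprints. Aars2 had 63.8 and 62.7 CPM in the knockdown against 61.1 and 49.9 CPM in the control, and Cars2 52.7 and 54.7 CPM against 51.6 and 49.4 CPM. Both were higher in footprints and lower in total RNA, where Aars2 had 66.0 and 62.5 CPM against 69.3 and 76.4 CPM and Cars2 69.6 and 68.0 CPM against 73.2 and 75.6 CPM. Fars2 had 16.1 and 14.6 CPM in knockdown footprints against 19.97 and 16.5 CPM, Pars2 had 8.33 and 7.53 CPM against 9.98 and 9.12 CPM, and Tars2 had 78.5 and 76.5 CPM against 85.3 and 83.1 CPM. Tars2, the mitochondrial enzyme for threonine, was also lower without overlap in total RNA, with 108 and 114 CPM against 119 and 121 CPM. Counting Mars2, 3 of 16 were higher and 3 of 16 lower without overlap in footprints, near the share of all genes in each direction (22.3% and 22.5%). In total RNA 2 were higher and 5 lower (Aars2, Cars2, Hars2, Lars2 and Tars2), where 23.3% and 24.6% of all genes were. The 2 higher ones were Ears2, the glutamyl enzyme, with 42.9 and 42.5 CPM against 37.2 and 37.7 CPM, and Sars2, with 25.7 and 28.0 CPM against 25.2 and 19.9 CPM. Sars2 serves serine in mitochondria and was thus on the other side of control from the cytosolic Sars. The remaining 8 (Hars2, Iars2, Lars2, Nars2, Rars2, Vars2, Wars2 and Yars2) had footprint means between 85.5% and 109% of control, with overlap in each. Of these, Hars2 had 38.2 and 37.8 CPM in knockdown total RNA against 42.0 and 38.4 CPM, and Lars2 22.7 and 23.5 CPM against 24.0 and 26.9 CPM. Rars2, for arginine, had 35.1 and 45.0 CPM in knockdown footprints against 43.9 and 49.8 CPM, and 52.3 and 49.8 CPM against 46.9 and 51.9 CPM in total RNA, with overlap in both. Wars2 had the fewest reads, 34 to 36 per footprint library.

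**Figure D3:**
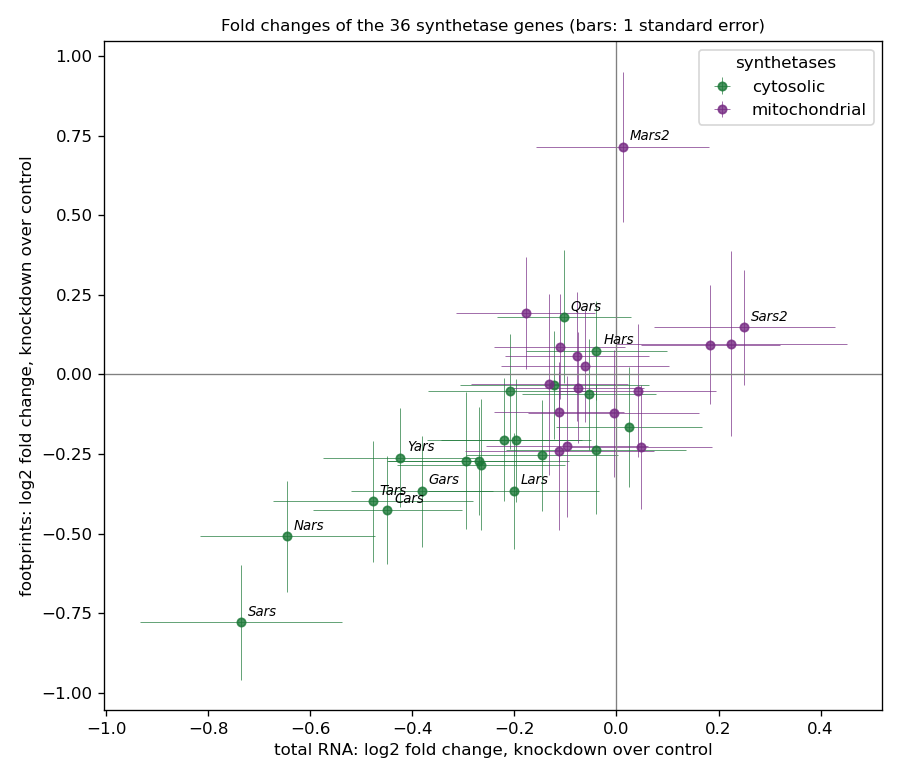
Log2 fold change (knockdown over control) of the 36 synthetase genes in total RNA (horizontal axis) and in footprints (vertical axis), with bars of 1 standard error from limma; green marks cytosolic and purple mitochondrial genes. Sars and Nars lie at the lower left, and Mars2 lies high on the vertical axis near 0 on the horizontal one.

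Most cytosolic genes below control in total RNA were below it in footprints as well, and the median difference between the assays was near 0. Of 20 cytosolic genes 17 were negative in both assays, the exceptions being Hars and Qars in footprints and Kars in total RNA. Of 16 mitochondrial genes 6 were negative in both. Whether both assays used the same cultures is not stated in the labels. The log2 change in translational efficiency is the footprint fold change less that of total RNA, as an interaction term fitted by limma to the 8 libraries together. Its median was 0.02 over the cytosolic genes (9 of 20 negative, against 50.8% of 12358 genes tested). Over the mitochondrial genes it was -0.05 (9 of 16 negative), and over all genes -0.0046. No gene passed (0% of all genes, smallest limma adjusted p of 1.00), and the values of Sars (-0.04 ± 0.28) and Nars (0.14 ± 0.25) were smaller than their standard errors. Mars2 had the smallest p among the 36, with a log2 change of 0.70 ± 0.30 (unadjusted p = 0.0382, limma adjusted p = 1.00), where 0.955% of all genes had an unadjusted p below 0.05 in that direction and 0.599% in the lower one. Aars2 (0.37 ± 0.23), Rars2 (-0.28 ± 0.25), Qars (0.28 ± 0.27) and Cars2 (0.20 ± 0.20) came next. Without footprint knockdown 1 only 1 of 20 cytosolic genes was negative in this contrast, and without footprint knockdown 2 there were 16 of 20.

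**Figure D4:**
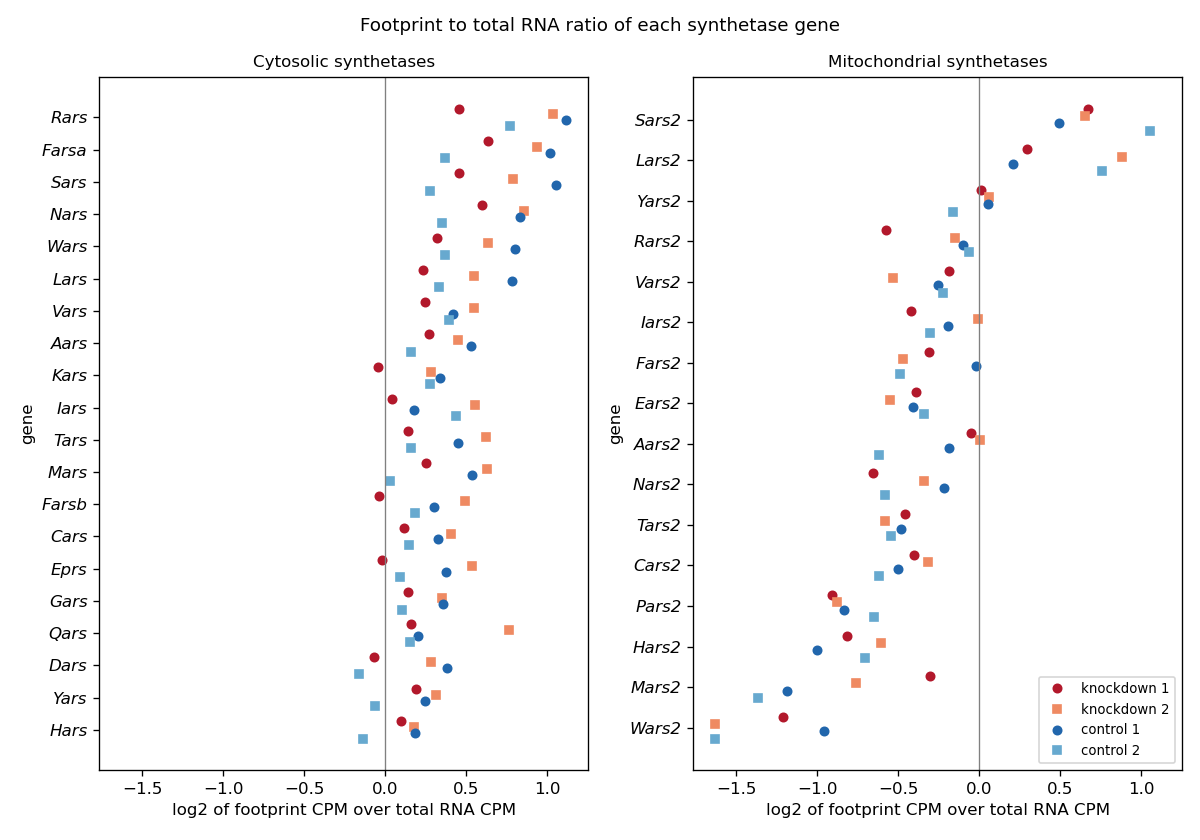
Log2 of footprint CPM over total RNA CPM of each cytosolic (left) and mitochondrial (right) synthetase gene, for knockdown 1, knockdown 2, control 1 and control 2, each footprint library set against the total RNA library of the same condition and number. Genes are ordered by their control mean; most cytosolic genes lie further right than most mitochondrial genes.

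The ratio of footprints to total RNA differed between the 2 kinds of enzyme in every library pair. Its log2 had a median over the cytosolic genes of 0.18 and 0.55 in the knockdown against 0.40 and 0.18 in the control. The median over all 12346 genes with reads in every library was -0.32 and -0.34 in the knockdown against -0.35 and -0.32 in the control. All 20 cytosolic genes exceeded that median in each of the 4 pairs. Mitochondrial genes had medians of -0.40 and -0.41 in the knockdown against -0.23 and -0.52 in the control, and 7 and 7 of 16 exceeded the median of all genes in the knockdown pairs, 9 and 6 in the control pairs. The 2 tables were normalized separately, so only the order of genes within a pair can be read from this ratio, and no test was made. Rars was the highest cytosolic gene by control mean, with 0.46 and 1.04 in the knockdown against 1.12 and 0.77 in the control. Hars was the lowest, with 0.10 and 0.18 in the knockdown against 0.18 and -0.13 in the control. Replicates differed for many genes, as for Sars with 0.46 and 0.79 in the knockdown against 1.056 and 0.28 in the control. Among mitochondrial enzymes Sars2 (0.67 and 0.65 in the knockdown against 0.49 and 1.05 in the control) and Lars2 (0.30 and 0.88 against 0.21 and 0.76) were the highest in the control by mean. Mars2 had -0.30 and -0.76 in the knockdown against -1.18 and -1.36 in the control. Wars2 was the lowest mitochondrial gene by control mean, with -1.21 and -1.63 in the knockdown against -0.96 and -1.63 in the control.

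The list of ATF4 pathway and amino acid genes, which holds Atf4 itself, had a wider range. The members named here were lower in the values given, but the highest log2 fold change of the list was 0.86 in footprints and 0.67 in total RNA. In footprints 16 of 28 measured members were negative, with a median of -0.12, and in total RNA 19 of 28 were, with a median of -0.24. None passed limma's threshold, but 8 lower and 3 higher had an unadjusted p below 0.05 in footprints, where 6.74% and 6.12% of all genes did. In total RNA 11 lower and 1 higher did, against 8.08% and 6.82% of all genes. Asns, the asparagine synthetase, had 261 and 280.5 CPM in knockdown footprints against 567 and 568 CPM in control footprints, a log2 fold change of -1.06 ± 0.16 (limma adjusted p = 0.0703). Its total RNA was 212 and 190.2 CPM in the knockdown against 367 and 521 CPM in the control (-1.12 ± 0.20, limma adjusted p = 0.114). Asns thus lay below control in each library, as Nars did, whose enzyme loads the same amino acid. Cth, which makes cysteine, had 45.1 and 54.0 CPM against 89.2 and 86.8 CPM in footprints, and 35.0 and 34.3 CPM against 61.7 and 94.3 CPM in total RNA. Psph, the last enzyme of serine synthesis, had footprints of 48.5 and 55.9 CPM against 97.4 and 83.3 CPM, and Aldh1l2, a mitochondrial folate enzyme, had total RNA of 2.45 and 1.88 CPM against 5.82 and 5.88 CPM. The footprint median was 0.0049 when libraries were scaled to equal totals. It was -0.08 without footprint control 2.

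Other genes around tRNA charging showed no common direction. Of 21 symbols listed, Gatb and Pet112 among them, 19 were measured. Of these, 10 were negative in footprints (median -0.03) and 13 in total RNA (median -0.08). In either assay 0 were past limma's threshold and 0 had an unadjusted limma p below 0.05. Without total RNA control 2 the total RNA median was 0.12, and with libraries scaled to equal totals the footprint median was 0.09, each on the other side of 0. The footprint median was 0.01 without footprint knockdown 1 (8 of 19 negative) and -0.09 without knockdown 2 or without control 2, and the total RNA median was -0.27 without control 1. Dtd1, a deacylase that removes D-amino acids from tRNA, had 32.0 and 37.5 CPM in knockdown footprints against 27.7 and 24.8 CPM, and 37.7 and 34.0 CPM in total RNA against 28.8 and 27.9 CPM. Tarsl2, a threonyl-tRNA synthetase paralog, had 17.2 and 19.2 CPM in knockdown footprints against 13.9 and 11.7 CPM, above control as the cytosolic Tars was below it. In total RNA Aarsd1, an editing protein related to Aars, had 93.0 and 92.1 CPM against 105.6 and 122 CPM, and Gatc, a subunit of the amidotransferase that completes mitochondrial glutaminyl-tRNA, had 8.44 and 7.21 CPM against 7.08 and 3.77 CPM.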

How the data were processed

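Footprints and total RNA of mouse stem cells were read from 2 deposited tables. Per the submitters' processing notes, the build was mm9 and the tools were edgeR 3.26.8, HTSeq 0.11.2, TopHat2 2.1.1 and Bowtie 1.2.3, with no role for each. Each footprint sample was sequenced repeatedly, per the labels' protocols. The library columns that the authors deposited hold a signal, reads per gene divided by an effective library size, written here as CPM. The authors' columns also give log2 fold changes, a likelihood ratio as a score, and p-values with an FDR. Values were whole multiples of the lowest nonzero value of their column within 0.01 read for 100% of genes, which gave reads per library for the filter and, outside the footprint column of control 2 (whose step lies too near 0.1 to be told from rounding), for count tests as alternatives.

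Low genes were removed with filterByExpr (edgeR 4.0.16, minimum count 10, minimum total 15). limma 3.58.1 (R 4.3.3) was run on log2(CPM + 1) over all genes, with a variance prior following the mean and Benjamini-Hochberg adjustment at 0.05. Fold changes are on this scale, which understates changes at low CPM. It compared 2 knockdown with 2 control libraries within each table, and assay by knockdown over all 8 libraries. With 2 against 2 libraries an exact test of a single value cannot go below p = 0.333. The fits were run on simulated data with the same dispersion in every library and planted changes larger than those of the 36 members. The real libraries had uneven spread, so that run cannot tell how the fits behave on them. The members and lists were chosen with earlier results of these data known. All 36 members are described: values per library are given for those whose groups do not overlap or that have 1 of the 5 smallest p in a comparison, with a few further ones for contrast, and of each companion list the 3 members with the smallest p per assay, except 1 item that is not reported here. Mars was matched to its promoter by an older symbol. Counting intervals are not given. The protocol calls replicates biological, without saying how they were separated.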

Additional observations from a re-analysis of the deposited data

How the results depend on the processing

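With 2 libraries a group, single libraries decide much. Leaving out 1 library gave 1 to 36 called genes in footprints, 34 to 6191 in total RNA and 0 to 1 for translational efficiency, and 0 synthetases in footprints, 0 to 17 in total RNA and 0 for translational efficiency. The lone library of a group is then assumed to vary like the other group. Without total RNA control 2, 7 synthetases passed, all lower (Cars, Gars, Iars, Nars, Sars, Tars and Yars), where 25.4% of all genes did. Without total RNA control 1, 15 cytosolic and 1 mitochondrial synthetase passed as lower and Sars2 as higher, where 46.1% of all genes did. The cytosolic median ranged from -0.43 to -0.059 in footprints, -0.38 to -0.073 in total RNA and -0.13 to 0.17 for translational efficiency. The mitochondrial median ranged from -0.016 to 0.049, -0.081 to -0.017 and -0.043 to 0.037. Counts of cytosolic genes without overlap ranged from 10 to 19 lower and 0 to 5 higher in footprints and from 16 to 20 lower and 0 to 4 higher in total RNA. For mitochondrial genes they ranged from 5 to 6 lower and 4 to 7 higher in footprints and from 6 to 9 lower and 3 to 6 higher in total RNA. Of all genes, 33.8% to 38.6% were lower and 32.5% to 40.3% higher without overlap in footprints in these settings, and 30.5% to 45.6% lower and 28.9% to 43.1% higher in total RNA, so the mitochondrial counts are near those shares. The translational efficiency value of Qars ranged from -0.0069, without footprint knockdown 2, to 0.57.

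Scaling to equal totals moved the median of all genes in footprints by over 0.1, to 0.12, and called 21 genes. The mitochondrial footprint median was then 0.12 as well, and the cytosolic one -0.13. Without overlap in footprints it gave 7 cytosolic genes lower and 2 higher, and 0 mitochondrial lower and 6 higher (14.4% of all genes lower, 31.3% higher). In total RNA it gave 11 cytosolic lower and 1 higher, 2 mitochondrial lower and 4 higher (19.6% and 29.7% of all genes), and a mitochondrial median of 0.0031. All 8 libraries in 1 fit called 89 genes in footprints and 97 in total RNA. DESeq2 called 272 genes in total RNA (2.15% of genes with an adjusted p), while edgeR's quasi-likelihood test called 0. Sars was the 1 synthetase among DESeq2's calls (DESeq2 adjusted p = 0.0476). On footprints without control 2 edgeR called 3 genes, with a mitochondrial median of 0.043. A replicate block on same-numbered knockdown and control libraries called 21 genes in footprints (0.165%) and 636 in total RNA (4.73% of all genes). Sars was the 1 synthetase it called, in total RNA (limma adjusted p = 0.0483). In total RNA the numbers looked crossed (r = -0.275 between same-numbered deviations, 0.231 in footprints). The crossed block, chosen after seeing the data, called 924 genes (6.88% of all genes), with 2 synthetases among them. Same-numbered footprint and total RNA libraries had r = 0.114 in the knockdown and 0.213 in the control over 8019 genes, and a replicate block on them called 0 genes for translational efficiency. Labels give these numbers no shared origin. Why these counts moved was not tested. The pseudocounts of 0.5 and 5, the other 2 scalings and the other filters kept each of these counts within 1.5 times and each median within the replicate spread. Depth limits the mitochondrial genes most.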

Other observations

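Elongation factors, which carry the charged tRNA to the ribosome and move the ribosome along, were mostly below control in total RNA. Of 11 genes 10 were negative there, with a median of -0.23 (50.3% of all genes were negative, median -0.0024), and 7 were negative in footprints, with a median of -0.05. None passed limma's threshold in either assay. Eef2, the translocase of the cytosolic ribosome, had total RNA of 2717 and 2555 CPM in the knockdown against 3813 and 3677 CPM in the control, and its log2 fold change was -0.51 ± 0.17 (limma adjusted p = 0.2701). Eef1g, a subunit of the elongation factor 1 complex, which also holds Vars, had 1434 and 1459 CPM against 1728 and 1930 CPM. Eefsec, the factor for selenocysteinyl-tRNA, whose tRNA is first charged by Sars, was lower without overlap in both assays. It had 26.8 and 29.2 CPM in knockdown footprints against 43.0 and 41.8 CPM in control footprints, and total RNA of 21.6 and 18.0 CPM against 30.3 and 25.6 CPM. In footprints Tsfm, a mitochondrial elongation factor, had 88.9 and 81.0 CPM against 110.2 and 98.8 CPM, and Eif5a had 1031 and 1088 CPM against 1298 and 1314 CPM. Without total RNA control 2 the total RNA median of the list was -0.13, with 7 of 11 negative. It was -0.36 with control 1 left out. The footprint median was 0.08, on the other side of 0, with libraries scaled to equal totals, and -0.0024 with footprint knockdown 1 left out. Leaving out knockdown 2 gave -0.19, leaving out control 1 gave -0.17, and leaving out control 2 gave -0.12.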
